A study of Mus musculus with 12 samples.

Results

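The semaphorins, plexins and neuropilins are a ligand and receptor system, and 31 of the 56093 rows of the count table carry one of their symbols: 20 semaphorins, 9 plexins and 2 neuropilins. Members were chosen by symbol, and a filter on low counts decided which of them could be tested. It kept 26 of the 31, and each of these had at least 44 counts in every group of 3 libraries. The last member inside the filter was Sema4g, with 193 counts over the 12 libraries and at most 18.3 per library as a group mean. The first outside was Plxna2, with 80 counts and at most 9. The other members left out were Sema6c, Sema5a, Sema3a and Sema5b, with 69, 53, 12 and 6 counts in all.

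RNA was sequenced, with a standard mRNA library kit, from B16 cells, a mouse melanoma line, in 4 groups of 3 libraries. shRFP cells carry a control hairpin against red fluorescent protein and shSdc1 cells a hairpin against syndecan-1, a cell-surface heparan sulfate proteoglycan. Each line was left unstimulated or given IFNγ, the type II interferon, at 10 ng/ml for 24 h, so every group carries an shRNA. The sources used here do not give the number of hairpins, whether cells were cloned, or if replicate libraries stem from different cultures. The p-values therefore measure the spread between these libraries, which may be technical.

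Semaphorins were first known as axon guidance cues and also act on blood vessels, immune cells and tumours. Class 3 semaphorins are secreted, and most of them bind a neuropilin that holds a class A plexin as the signalling chain. Sema3e instead binds plexin D1 directly. Classes 4 and 6 span the membrane, with plexin B chains as receptors for much of class 4 and plexin A chains for class 6, and Sema7a is held by a lipid anchor and binds plexin C1 and integrin β1. Plexins carry a GTPase-activating domain for small Ras-like and Rap proteins. Neuropilins also bind VEGF family growth factors, and their ligands carry basic stretches that bind heparan sulfate.

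Totals per library ran from 14337771 to 21548940 counts. Levels are given in CPM, counts scaled to library size with TMM factors, and between genes in CPM per kilobase of exon. Sdc1 itself was at 76.4, 73.9 and 75.9 CPM in shRFP, 23.4, 22.1 and 25.7 in shSdc1, 83.3, 79.6 and 102.7 in shRFP with IFNγ and 27.0, 25.1 and 25.4 in shSdc1 with IFNγ. The labelled cell type was checked with 7 melanocyte genes, whose summed level was 17245 to 17292 CPM in shRFP, 12940 to 13369 in shSdc1, 16614 to 18170 in shRFP with IFNγ and 11747 to 13170 in shSdc1 with IFNγ. All 7 were lower in shSdc1 without IFNγ and 6 with it, at an adjusted p under 0.05 in edgeR's quasi-likelihood test. Over all genes tested, 14.6% and 17.4% were lower. Of 8 leukocyte markers, Cd3e was at 0 and Ptprc, Itgam and Csf1r at 1 count each over all libraries, while the summed list, mostly Cd68, was 2.49 to 3.44 CPM in shRFP and 8.57 to 8.98 in shSdc1. With IFNγ that sum was 5.73 to 8.45 CPM in shRFP and 15.8 to 16.6 in shSdc1. Tie1, Dcn, Snap25 and Rbfox3, markers of endothelial, fibroblast and neural cells, were at 0. The summed endothelial list stayed between 0.367 and 1.96 CPM and the fibroblast list between 13.6 and 18.6, and the neural list, nearly all Mbp, was 233 to 240 CPM in shSdc1 and 278 to 372 in the other groups. In 1 library, shSdc1 replicate 3, a single row without a symbol took 4.79% of counts, against 0.0842% to 0.195% elsewhere. The counts of members called were the same in a fit without that row and the 677 assembled loci, which were left out together. In bulk libraries, fewer cells of a type and less RNA per cell cannot be told apart.

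Receptors held the first 4 places by level per kilobase, and the other plexins and Nrp1 were spread among the ligands. In unstimulated shRFP cells the order began with Plxnb2 at 76.1 CPM per kb, Plxna1 at 69.7, Nrp2 at 62.7 and Plxnd1 at 45.0. Sema3b led the ligands at 34.9, ahead of Sema4c at 18.5. Plxnb1, at 20.0, lay between these ligands, and Plxnc1, the Sema7a receptor, at 10.2, below both. A middle group held Sema4b, Sema6b, Sema6a, Nrp1, Sema4d, Sema4f, Sema6d and Sema7a, from 4.62 down to 1.03 CPM per kb. Within it Sema6b and Sema6a, at 3.48 ± 0.148 and 3.40 ± 0.157 (SD, n = 3), differed by less than their spread, as did Nrp1 and Sema4d at 2.89 ± 0.310 and 2.89 ± 0.133. Below 1 CPM per kb lay Sema3c, Plxna3, Sema3g, Sema4a, Sema3f, Plxnb3, Sema3e, Sema3d, Plxna4 and Sema4g, from 0.901 to 0.0973. Sema3b made up 46.3% of the summed semaphorin level per kb in shRFP, and Nrp2 95.6% of the neuropilin level. Plxnb2, Plxna1 and Plxnd1 made up 34.3%, 31.4% and 20.2% of the plexin level.

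**Figure D1:**
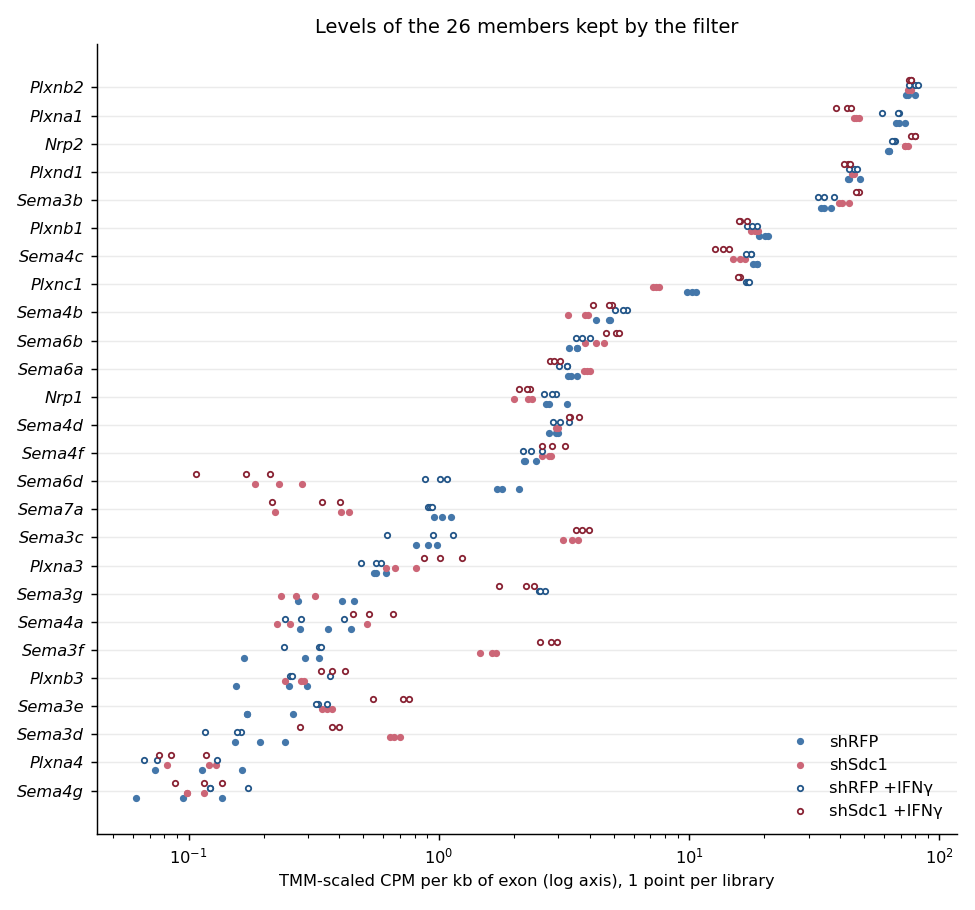
Levels of the 26 members kept by the filter, in TMM-scaled CPM per kilobase of exon on a log axis, with 1 point per library and 1 colour and fill per group. Plxnb2 is at the top and Sema4g at the bottom in shRFP. Within each condition, the points of the lines separate for Sema6d, Sema7a, Sema3c, Sema3f and Sema3d. For Sema3g, treated and untreated points separate within each line.

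Promoter sequences are shown for 4 members. Plxnc1, Sema3g and Sema3e had the largest rises among the members that passed the test upward with IFNγ in both lines; Sema4b also passed, at 0.23 and 0.33 on the log2 scale, and is not shown. Sema6d had the largest fall of any member in shSdc1. Each run is the 250 bases before the annotated start, from RefSeq on GRCm38.p6 and on the gene's own strand: Plxnc1 on the minus strand at chr10:94944846-94945095, Sema3g at chr14:31217623-31217872, Sema3e at chr5:14025026-14025275 and Sema6d at chr2:124089719-124089968, the last 3 on the plus strand. Sema6d has another annotated start, whose window held no match. Capitals mark matches to the 3 motifs described after the sequences.
Plxnc1: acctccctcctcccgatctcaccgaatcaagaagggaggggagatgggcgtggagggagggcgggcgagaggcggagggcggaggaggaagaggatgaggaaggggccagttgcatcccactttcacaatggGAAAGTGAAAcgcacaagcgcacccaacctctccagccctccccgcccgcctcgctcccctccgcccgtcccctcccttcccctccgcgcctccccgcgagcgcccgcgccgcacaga
Sema3g: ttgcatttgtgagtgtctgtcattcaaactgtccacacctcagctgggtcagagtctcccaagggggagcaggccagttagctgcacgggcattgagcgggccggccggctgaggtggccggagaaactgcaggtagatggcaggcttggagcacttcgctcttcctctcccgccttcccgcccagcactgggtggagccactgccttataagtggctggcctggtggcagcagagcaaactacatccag
Sema3e: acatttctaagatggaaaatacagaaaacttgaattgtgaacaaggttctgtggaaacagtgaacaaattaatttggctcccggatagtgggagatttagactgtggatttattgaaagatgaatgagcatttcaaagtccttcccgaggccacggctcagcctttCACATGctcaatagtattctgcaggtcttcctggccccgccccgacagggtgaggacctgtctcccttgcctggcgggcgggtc
Sema6d: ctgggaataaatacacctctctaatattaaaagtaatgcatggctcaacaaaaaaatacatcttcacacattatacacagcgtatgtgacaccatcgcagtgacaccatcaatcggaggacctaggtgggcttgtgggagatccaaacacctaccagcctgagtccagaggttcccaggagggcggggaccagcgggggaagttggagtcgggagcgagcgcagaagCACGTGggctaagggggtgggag

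The motifs were searched on both strands: a pair of GAAA letters with any 2 bases between them, an interferon-stimulated response element (ISRE), and the E-boxes CACGTG and CATGTG, which the melanocyte factor MITF binds. They occurred in 2.98%, 6.02% and 12.3% of all 32851 windows of this length. RefSeq entries were matched for 26 of the 31 members, in 37 windows, and Plxna1, Plxna4, Sema3b, Sema3f and Sema6a had none. ISRE letters were in Plxnc1 at bases -118 to -109 and in 1 of 2 Sema6b windows at -146 to -137. CACGTG was in 1 of 2 Sema6d windows at -23 to -18 and in 1 of 2 Sema4b windows at -102 to -97, and CATGTG was in Sema3e at -84 to -79 on the opposite strand. Sema3g held none of the 3, and no matches overlapped. A match is a description of letters, not of binding.

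The first comparison set shSdc1 against shRFP cells, without and with IFNγ. In shSdc1 cells 5 of the 6 tested class 3 semaphorins rose in both conditions, led by Sema3f, Sema3c and Sema3d, while Sema6d and Sema7a fell. Among the receptors Plxna1 and Nrp1 fell and Nrp2 rose. Across the 26 tested members, edgeR's quasi-likelihood test called 8 higher and 7 lower without IFNγ, 57.7% of them. Over all 14089 genes tested, 28.6% passed, 14.0% higher and 14.6% lower. With IFNγ 10 members were higher and 8 lower, 69.2%, against 36.3% of all genes, 18.9% higher and 17.4% lower. Of the calls without IFNγ, 3 rises and 2 falls were at least 2-fold, against 2.30% and 1.14% of all genes, and with IFNγ 4 rises and 2 falls, against 3.83% and 0.759%. The 3 libraries of the lines did not overlap for 18 members without IFNγ and 18 with it, against 43.3% and 44.9% of all genes. The members' median log2 fold change was 0.023 without IFNγ, against 0 over all genes, and -0.00093 with it, against 0.017. Adjusted p-values are from edgeR over all 14089 genes, and fold changes are log2 ± SE. This SE was derived from the test, as the absolute log2 fold change divided by the square root of the F statistic.

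**Figure D2:**
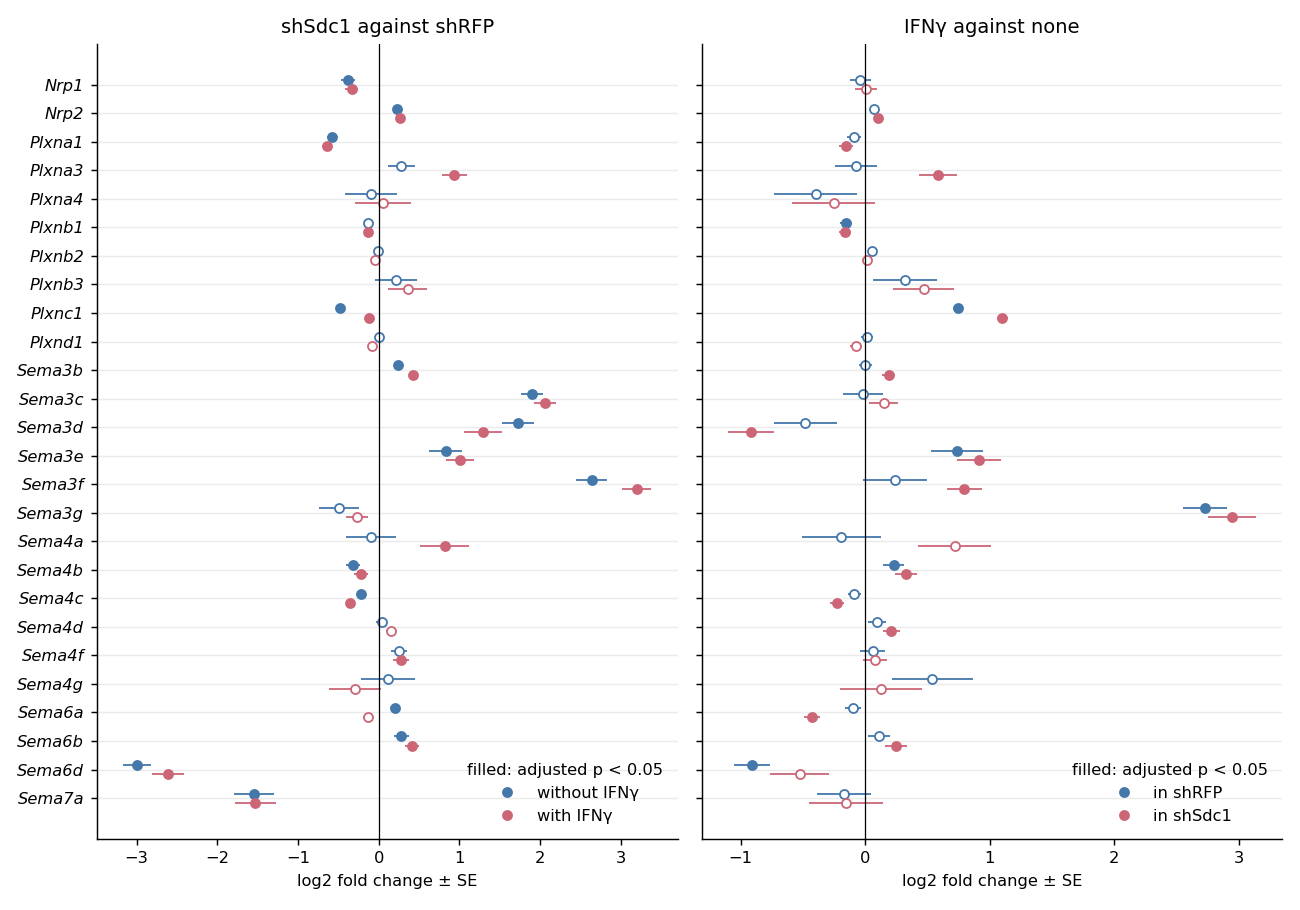
Log2 fold change ± SE of each of the 26 tested members, for shSdc1 against shRFP (left, without and with IFNγ) and for IFNγ against none (right, in shRFP and in shSdc1). Filled points have an adjusted p under 0.05. Sema6d lies farthest left and Sema3f farthest right for the hairpin, and Sema3g farthest right for IFNγ.

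Sema3f (ENSMUSG00000034684), a secreted ligand that prefers neuropilin-2, was at 0.866, 1.72 and 1.52 CPM in shRFP and 8.50, 7.57 and 8.80 in shSdc1. With IFNγ it was at 1.72, 1.25 and 1.76 CPM in shRFP and 14.6, 15.4 and 13.1 in shSdc1. Every shSdc1 library lay above every shRFP library. The log2 fold change was 2.64 ± 0.19 (adjusted p = 5.29e-09) without IFNγ, 6.23-fold, and 3.19 ± 0.18 (adjusted p = 1.46e-10) with it, 9.15-fold. Among all 14089 genes it ranked 55th and 38th from the highest. Sema3c, a ligand that uses either neuropilin, was at 7.02, 6.47 and 5.80 CPM in shRFP, 22.4, 24.3 and 25.7 in shSdc1, 6.75, 4.42 and 8.17 in shRFP with IFNγ and 25.2, 28.5 and 26.6 in shSdc1 with IFNγ. Again no shSdc1 library overlapped the shRFP libraries, and the rises were 1.90 ± 0.14 (adjusted p = 3.70e-09) and 2.06 ± 0.14 (adjusted p = 1.19e-09), or 3.72-fold and 4.18-fold. Sema3d, another secreted ligand, was at 2.10, 1.66 and 1.31 CPM in shRFP, 5.71, 5.50 and 5.99 in shSdc1, 1.39, 0.997 and 1.34 in shRFP with IFNγ and 3.22, 3.43 and 2.40 in shSdc1 with IFNγ. Its groups did not overlap either, with 1.73 ± 0.20 (adjusted p = 1.90e-06) and 1.29 ± 0.23 (adjusted p = 2.54e-04).

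Sema3e, the plexin D1 ligand, was at 1.60, 2.43 and 1.59 CPM in shRFP, 3.46, 3.32 and 3.18 in shSdc1, 3.04, 2.99 and 3.31 in shRFP with IFNγ and 6.66, 5.08 and 7.06 in shSdc1 with IFNγ. The shSdc1 libraries were higher in both conditions without overlap, by 0.83 ± 0.21 (adjusted p = 0.00495) and 1.01 ± 0.18 (adjusted p = 2.21e-04). Its receptor gene Plxnd1 was at 328 ± 21.4 CPM (SD, n = 3) in shRFP and 330.0 ± 3.57 in shSdc1 and did not pass, at 0.0081 ± 0.045 (adjusted p = 0.92) without IFNγ and -0.080 ± 0.045 (adjusted p = 0.181) with it. Sema3b, the most abundant ligand here, was at 165, 175 and 160.4 CPM in shRFP, 195, 208 and 189 in shSdc1, 164, 156 and 181 in shRFP with IFNγ and 226, 227 and 222 in shSdc1 with IFNγ. Its groups did not overlap, by a small margin without IFNγ (175 against 189 CPM) and a wider one with it (181 against 222). The rises were 0.24 ± 0.053 (adjusted p = 0.00193) and 0.43 ± 0.053 (adjusted p = 3.90e-06). The exception in class 3 was Sema3g, at -0.49 ± 0.24 (adjusted p = 0.151) and -0.27 ± 0.14 (adjusted p = 0.144), which did not pass. Summed per kb, class 3 was 36.9 ± 1.81 CPM (SD, n = 3) in shRFP and 47.6 ± 1.78 in shSdc1, and 39.2 ± 2.95 and 56.8 ± 1.20 with IFNγ.

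Sema6d (ENSMUSG00000027200), a membrane ligand known to bind plexin A1, had the largest fall. It was at 18.8, 22.1 and 18.0 CPM in shRFP, 2.43, 3.00 and 1.95 in shSdc1, 9.33, 11.3 and 10.6 in shRFP with IFNγ and 1.13, 2.24 and 1.80 in shSdc1 with IFNγ. No libraries overlapped between the lines. The change was -2.99 ± 0.17 (adjusted p = 2.04e-10) without IFNγ, 7.96-fold lower, and -2.61 ± 0.19 (adjusted p = 5.30e-09) with it, 6.10-fold lower. It ranked 6th and 2nd from the lowest of the 14089 genes. Sema7a, the ligand of plexin C1 and integrin β1, was at 3.69, 3.14 and 3.39 CPM in shRFP, 1.34, 1.44 and 0.733 in shSdc1, 2.98, 3.05 and 3.10 in shRFP with IFNγ and 1.13, 0.709 and 1.33 in shSdc1 with IFNγ. These groups did not overlap either, with -1.54 ± 0.25 (adjusted p = 9.42e-05) and -1.53 ± 0.26 (adjusted p = 1.31e-04), or 2.92-fold and 2.88-fold lower. The summed melanocyte markers were lower, and Cd68 and Lyz2 higher, in the same comparisons; their part in the changes of these ligands and of the class 3 genes was not tested.

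**Figure D3:**
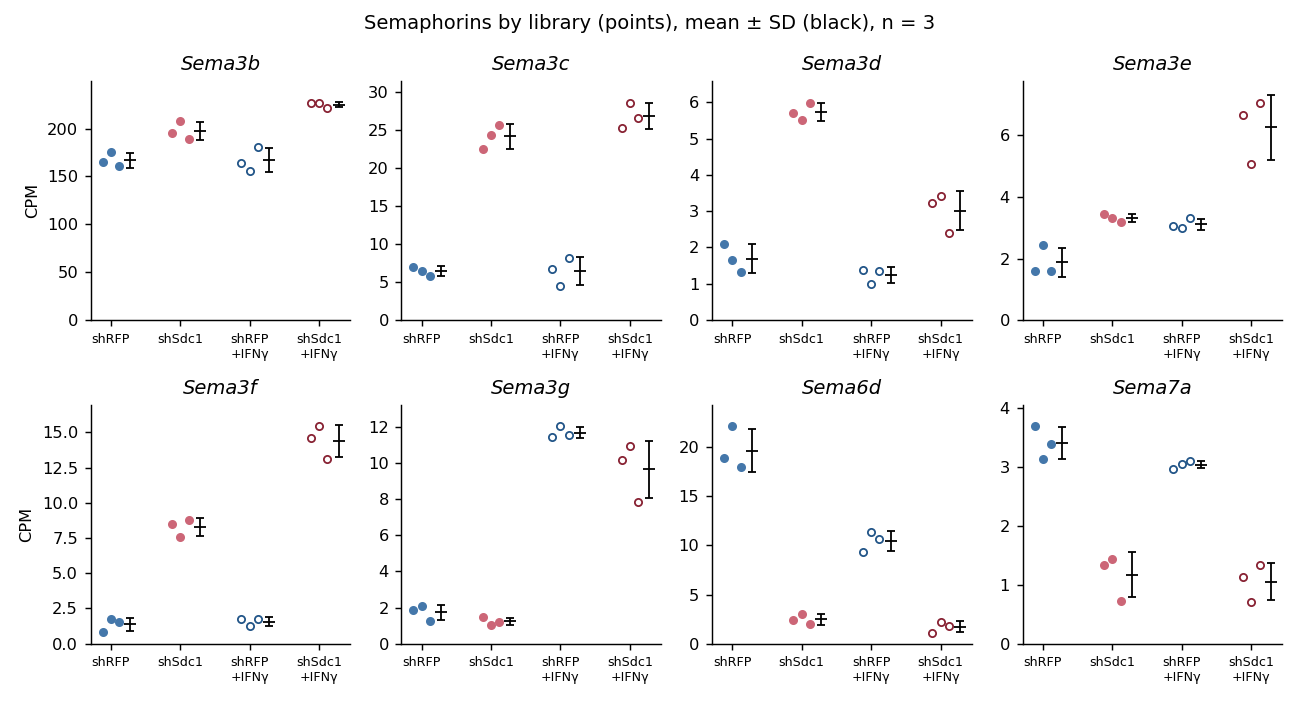
CPM of 8 semaphorins (vertical axes from 0) in each library of the 4 groups, with points for libraries and black bars for mean ± SD (n = 3). Sema3c, Sema3d and Sema3f are higher in both shSdc1 groups, Sema6d and Sema7a are lower, and Sema3g is high in both IFNγ groups.

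The other membrane semaphorins moved less. Sema4c, a plexin B2 ligand, was at 85.8, 83.0 and 85.9 CPM in shRFP, 73.0, 76.9 and 69.0 in shSdc1, 81.0, 81.1 and 77.6 in shRFP with IFNγ and 62.4, 66.5 and 58.2 in shSdc1 with IFNγ. It was lower in shSdc1 without overlap, at -0.22 ± 0.053 (adjusted p = 0.00438) and -0.36 ± 0.054 (adjusted p = 4.16e-05). It shares 7.27% of its exon bases with D430040D24Rik on the other strand, which had 435 counts against 14877 for Sema4c. Sema4b was at 23.9, 27.3 and 27.0 CPM in shRFP, 21.6, 18.6 and 22.2 in shSdc1, 31.9, 30.8 and 28.5 in shRFP with IFNγ and 27.8, 27.0 and 23.4 in shSdc1 with IFNγ. It was lower in both conditions, at -0.32 ± 0.086 (adjusted p = 0.00855) and -0.22 ± 0.083 (adjusted p = 0.0457), but the first did not pass without shSdc1 replicate 2 (adjusted p = 0.0611) and the second without any 1 of shRFP with IFNγ replicates 1 and 2 or shSdc1 with IFNγ replicates 2 and 3 (0.139, 0.0833, 0.0633 and 0.196). Sema6b was at 13.1, 14.1 and 14.2 CPM in shRFP, 16.8, 15.2 and 18.1 in shSdc1, 15.9, 14.0 and 14.8 in shRFP with IFNγ and 18.5, 20.3 and 20.9 in shSdc1 with IFNγ, a rise of 0.28 ± 0.090 (adjusted p = 0.0246) and 0.42 ± 0.089 (adjusted p = 0.00118). The rise without IFNγ did not pass without shRFP replicate 1, shSdc1 replicate 1 or shSdc1 replicate 3 (0.111, 0.0688 and 0.125). Its groups did not overlap in either condition.

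Sema6a, a plexin A ligand, was at 28.7, 29.5 and 31.4 CPM in shRFP, 33.3, 35.2 and 34.3 in shSdc1, 26.4, 28.7 and 28.5 in shRFP with IFNγ and 24.3, 25.4 and 26.8 in shSdc1 with IFNγ. The unstimulated lines did not overlap and differed by 0.20 ± 0.061 (adjusted p = 0.0197), and the stimulated lines overlapped, at -0.13 ± 0.064 (adjusted p = 0.127). The unstimulated call was lost on leaving out shRFP replicate 1, shRFP replicate 2, shSdc1 replicate 2 or shSdc1 replicate 3 (adjusted p = 0.0983, 0.059, 0.0805 and 0.0579). Sema4a, known from immune cells, was at 1.504, 1.96 and 2.42 CPM in shRFP, 2.79, 1.38 and 1.22 in shSdc1, 1.52, 1.31 and 2.25 in shRFP with IFNγ and 3.54, 2.84 and 2.47 in shSdc1 with IFNγ. It passed with IFNγ, at 0.82 ± 0.30 (adjusted p = 0.041) but did not at -0.094 ± 0.31 (adjusted p = 0.862) without it. The call with IFNγ ended without shRFP with IFNγ replicate 1 or 2 or shSdc1 with IFNγ replicate 1 or 2 (0.113, 0.157, 0.165 and 0.0766). Sema4f was at 11.5, 12.9 and 11.7 CPM in shRFP, 13.7, 14.5 and 14.8 in shSdc1, 11.5, 13.7 and 12.3 in shRFP with IFNγ and 13.6, 16.8 and 14.99 in shSdc1 with IFNγ, with 0.25 ± 0.10 (adjusted p = 0.0687) and 0.27 ± 0.10 (adjusted p = 0.0412). The latter ended without shRFP with IFNγ replicate 1 or 3 or shSdc1 with IFNγ replicate 2 or 3 (0.163, 0.0949, 0.221 and 0.0808). Sema4d, a plexin B1 ligand, was at 21.1, 23.0 and 22.5 CPM in shRFP, 22.9, 22.8 and 22.5 in shSdc1, 25.5, 21.9 and 23.5 in shRFP with IFNγ and 25.7, 27.8 and 25.4 in shSdc1 with IFNγ and did not pass, at 0.038 ± 0.071 (adjusted p = 0.747) and 0.15 ± 0.070 (adjusted p = 0.0954), although the latter passed without shRFP with IFNγ replicate 1 (0.0415).

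Among the receptors, Plxna1, a signalling chain for class 3 and class 6 ligands, was at 608, 626 and 659 CPM in shRFP, 419.8, 430.2 and 414 in shSdc1, 624, 619 and 534 in shRFP with IFNγ and 385, 351 and 402 in shSdc1 with IFNγ. Every shSdc1 library was below every shRFP library, at -0.58 ± 0.056 (adjusted p = 1.98e-07) and -0.64 ± 0.056 (adjusted p = 4.56e-08), or 1.498-fold and 1.56-fold lower. Its share of the summed plexin level per kb went from 31.4% to 23.9%, and from 28.9% to 21.47% with IFNγ. An antisense gene, Gm26811, shares 10.7% of its exon bases, and since strand use in the counting is not given in the sources used here, reads of the 2 cannot be told apart there; Gm26811 itself had 726 counts in all, against 100095 for Plxna1. Nrp2 was at 746, 745 and 736 CPM in shRFP, 890.0, 861 and 860.0 in shSdc1, 788, 781 and 764 in shRFP with IFNγ and 945, 914 and 944 in shSdc1 with IFNγ. Its rise was small and without overlap, 0.23 ± 0.031 (adjusted p = 1.39e-05) and 0.26 ± 0.031 (adjusted p = 1.99e-06). Nrp1 was at 26.2, 26.9 and 31.8 CPM in shRFP, 23.0, 19.5 and 22.3 in shSdc1, 28.8, 27.7 and 25.7 in shRFP with IFNγ and 20.5, 22.7 and 22.1 in shSdc1 with IFNγ. The other neuropilin thus fell, at -0.38 ± 0.084 (adjusted p = 0.00184) and -0.34 ± 0.085 (adjusted p = 0.00428). Nrp2 was 95.6% of the neuropilin level per kb in shRFP and 97.1% in shSdc1.

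Plxnc1 (ENSMUSG00000074785), the Sema7a receptor, was at 89.0, 85.4 and 82.2 CPM in shRFP, 59.96, 61.7 and 63.1 in shSdc1, 141, 144 and 145 in shRFP with IFNγ and 132, 133 and 131 in shSdc1 with IFNγ. It was lower in shSdc1 in both conditions without overlap, by -0.48 ± 0.044 (adjusted p = 1.42e-07) and -0.12 ± 0.042 (adjusted p = 0.0296). The call with IFNγ ended without shRFP with IFNγ replicate 3 or any 1 of the shSdc1 with IFNγ replicates (adjusted p = 0.0521, 0.0627, 0.0531 and 0.066). Plxna3 was at 4.42, 4.33 and 4.84 CPM in shRFP, 4.86, 6.38 and 5.25 in shSdc1, 3.84, 4.42 and 4.65 in shRFP with IFNγ and 9.77, 7.97 and 6.86 in shSdc1 with IFNγ. It passed with IFNγ at 0.94 ± 0.16 (adjusted p = 1.25e-04) but not without, at 0.28 ± 0.16 (adjusted p = 0.215). Plxnb1, a Sema4d receptor, was at 182, 199 and 193 CPM in shRFP, 175, 181 and 169.8 in shSdc1, 179.7, 164 and 171 in shRFP with IFNγ and 164, 153 and 152 in shSdc1 with IFNγ. The lines were apart in every library by a small margin, at -0.13 ± 0.048 (adjusted p = 0.0573) and -0.13 ± 0.049 (adjusted p = 0.0391); the latter ended without shRFP with IFNγ replicate 1 or shSdc1 with IFNγ replicate 2 or 3 (0.147, 0.115 and 0.122), and the former passed without shRFP replicate 1 (0.0307). Plxnb2, the most abundant plexin, was at 588 ± 25.6 CPM (SD, n = 3) in shRFP and 586 ± 8.63 in shSdc1, and did not pass at -0.0049 ± 0.039 (adjusted p = 0.945) or, with IFNγ, -0.052 ± 0.039 (adjusted p = 0.327). Plxna4, Plxnb3 and Sema4g, with group means of at most 2.45 CPM, did not pass in either condition.

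**Figure D4:**
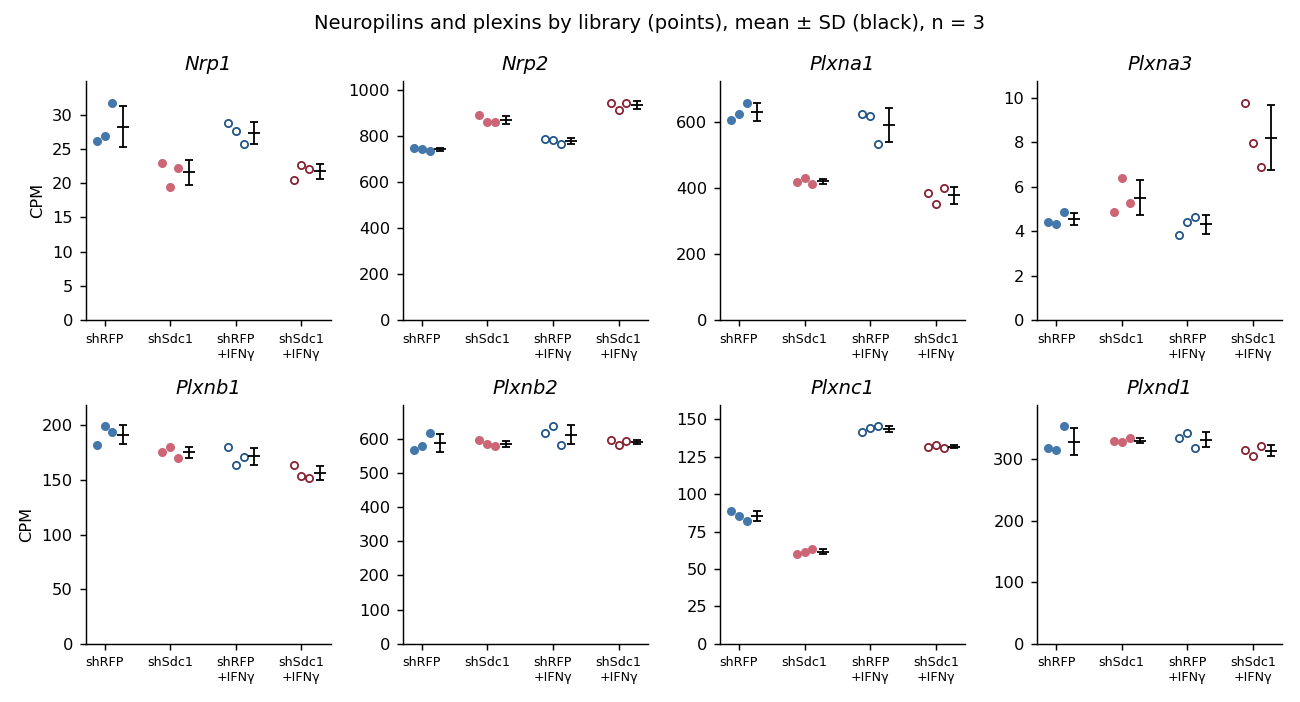
CPM of 8 receptors (vertical axes from 0) in each library of the 4 groups, with points for libraries and black bars for mean ± SD (n = 3). Plxna1 and Nrp1 are lower and Nrp2 higher in shSdc1, and Plxnc1 is higher in both IFNγ groups.

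Genes on either side of Sema3f and Sema6d were compared for the 5 nearest coding genes each way in GENCODE order; this comparison was chosen after the values were seen. Sema3f and Sema3b lie 4 places apart on chromosome 9. Between them, Slc38a3, an amino acid transporter 2 places from Sema3f, rose from 0.282 ± 0.137 CPM (SD, n = 3) in shRFP to 8.16 ± 0.681 in shSdc1, 4.73 ± 0.28 (adjusted p = 3.12e-10). With IFNγ it rose from 0.692 ± 0.335 to 11.00 ± 1.80 CPM, 3.996 ± 0.24 (adjusted p = 3.25e-10). Of its other measured neighbours, Ifrd2, Gnai2, Rbm5, Rbm6 and Mon1a were at -0.087 to 0.13 without IFNγ. Beside Sema6d lie pigment genes: Slc24a5, a melanosomal ion exchanger, fell from 238 ± 6.74 to 109 ± 5.42 CPM, -1.12 ± 0.052 (adjusted p = 1.18e-11). Bloc1s6, needed for melanosome assembly, stood at -0.95 ± 0.084 (adjusted p = 6.42e-08). Slc30a4, Myef2 and Dut were at -0.26 to -0.085. Sema3d, Sema3a and Sema3e are also close together, on chromosome 5, with Sema3a left out for low counts.

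**Figure D5:**
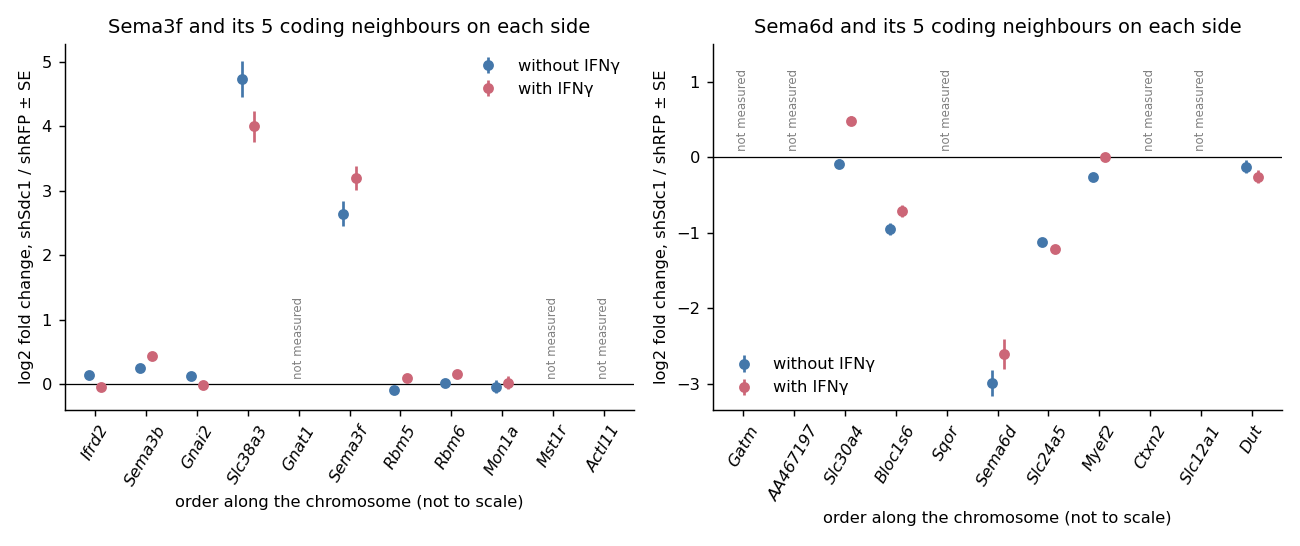
Log2 fold change ± SE of shSdc1 against shRFP, without and with IFNγ, for Sema3f and Sema6d and the 5 coding genes on each side, in order along the chromosome and not to scale; genes left out by the filter are written as not measured. Slc38a3 lies above Sema3f, and Slc24a5 and Bloc1s6 lie below 0 beside Sema6d.

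Of the other receptors and co-receptors of semaphorins, 6 of 13 were measured. Among these 6, 50% passed without IFNγ and 50% with it, against 28.6% and 36.3% of all genes. Without IFNγ 1 was higher and 2 lower, L1cam at 0.36 ± 0.049 (adjusted p = 1.66e-05), Erbb2 at -0.21 ± 0.064 (adjusted p = 0.0205) and Met at -0.19 ± 0.045 (adjusted p = 0.00309); L1cam is a neuropilin-1 partner, and Met and Erbb2 are receptor kinases that associate with plexin B1. With IFNγ 2 were higher and 1 lower, L1cam at 0.59 ± 0.050 (adjusted p = 2.58e-08), Erbb2 at -0.35 ± 0.066 (adjusted p = 3.93e-04) and Met at 0.14 ± 0.044 (adjusted p = 0.0191). Of 33 cytoplasmic partners of plexins and neuropilins, 30 were measured, and 4 were higher and 10 lower without IFNγ and 5 and 11 with it, 46.7% and 53.3%, against 28.6% and 36.3% of all genes. The median log2 fold change of these 30 was -0.042 without IFNγ, against 0 for all genes, and -0.13 with it, against 0.017. The largest without IFNγ were Rnd1 at 0.91 ± 0.28 (adjusted p = 0.0186), Crmp1 at -0.90 ± 0.096 (adjusted p = 7.10e-07) and Dpysl5 at -0.69 ± 0.14 (adjusted p = 0.00105), where Rnd1 is a GTPase that binds plexins and Crmp1 and Dpysl5 belong to the collapsin response mediators. With IFNγ they were Rnd1 at 1.82 ± 0.27 (adjusted p = 3.39e-05), Rras at 0.65 ± 0.11 (adjusted p = 1.79e-04) and Crmp1 at -0.58 ± 0.096 (adjusted p = 1.06e-04), Rras being a substrate of the plexin GTPase-activating domain.

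Of 8 VEGF ligands and receptors, which pair with neuropilins, 5 were measured. Kdr was at 0 counts and Flt1 at 2. In each condition 40% of the 5 passed, against 28.6% of all genes without IFNγ and 36.3% with it. Without IFNγ 2 were lower, Vegfa at -0.49 ± 0.082 (adjusted p = 1.35e-04) and Vegfb at -0.27 ± 0.053 (adjusted p = 6.54e-04). With IFNγ 1 was higher and 1 lower, Flt4 at 0.94 ± 0.12 (adjusted p = 8.59e-06) and Vegfb at -0.39 ± 0.054 (adjusted p = 1.56e-05), Flt4 being the VEGF-C receptor. Of 7 proteases that cleave semaphorins 5 were measured. In each condition 3 were higher, 60% of these few genes, against 14.0% and 18.9% of all genes, and none of the 5 lower. These were Furin at 0.34 ± 0.045 (adjusted p = 1.06e-05), Mmp14 at 0.28 ± 0.043 (adjusted p = 7.96e-05) and Adam10 at 0.21 ± 0.043 (adjusted p = 8.53e-04) without IFNγ. With IFNγ they were Adam10 at 0.31 ± 0.043 (adjusted p = 1.33e-05), Adam17 at 0.28 ± 0.048 (adjusted p = 1.34e-04) and Furin at 0.19 ± 0.044 (adjusted p = 0.00267). Furin cuts class 3 semaphorins, and Adam10, Adam17 and Mmp14 shed membrane proteins.

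The second comparison set IFNγ-treated against untreated cells within each line, with the untreated libraries that also served above. Sema3g and Plxnc1 rose in both lines, as did Sema3e and Sema4b, while Sema6d fell in shRFP and Sema3d and Sema6a fell in shSdc1. In shRFP 4 members were higher and 2 lower, 23.1%, against 31.6% of all genes, 17.2% higher and 14.4% lower. In shSdc1 10 were higher and 5 lower, 57.7%, against 30.5%, 17.5% higher and 13.0% lower. Upper-quartile scaling shifts these splits: of all genes called in shRFP 54.5% were higher with TMM and 38.5% with upper-quartile scaling, and in shSdc1 57.5% and 45.1%. With that scaling 3 members were higher in shRFP, Sema4b no longer passing, and 7 in shSdc1, without Nrp2, Sema4d and Sema6b. Rises of at least 2-fold numbered 1 in shRFP and 2 in shSdc1, against 2.92% and 3.90% of all genes, and falls of that size 0 and 0, against 1.12% and 0.653%. Treated and untreated libraries did not overlap for 10 members in shRFP and 17 in shSdc1, against 41.4% and 45.9% of all genes. The members' medians were 0.0077 and 0.12, against -0.0058 and 0.0042 for all genes.

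Sema3g (ENSMUSG00000021904), a class 3 ligand known from blood vessels, was at 1.87, 2.08 and 1.24 CPM in shRFP, 1.46, 1.06 and 1.22 in shSdc1, 11.4, 12.02 and 11.6 in shRFP with IFNγ and 10.1, 10.9 and 7.86 in shSdc1 with IFNγ. Treated and untreated libraries were far apart in both lines. The rise was 2.73 ± 0.18 (adjusted p = 3.80e-10) in shRFP, 6.62-fold, and 2.95 ± 0.19 (adjusted p = 4.26e-10) in shSdc1, 7.71-fold. Its share of the summed semaphorin level per kb went from 0.504% to 3.35% in shRFP and from 0.336% to 2.35% in shSdc1. Plxnc1 rose without overlap, 0.75 ± 0.043 (adjusted p = 7.03e-11) in shRFP, 1.68-fold, and 1.099 ± 0.044 (adjusted p = 1.73e-13) in shSdc1, 2.14-fold. In shRFP its share of the plexin level per kb went from 4.63% to 7.62%. Its ligand Sema7a did not pass, at -0.17 ± 0.22 (adjusted p = 0.594) and -0.15 ± 0.30 (adjusted p = 0.748).

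Sema3e rose in both lines, 0.74 ± 0.21 (adjusted p = 0.0118) in shRFP and 0.91 ± 0.18 (adjusted p = 5.52e-04) in shSdc1, without overlap. The first did not pass without shRFP replicate 1 (0.61, adjusted p = 0.0662). Sema3f rose in shSdc1, 0.80 ± 0.14 (adjusted p = 2.53e-04), 1.74-fold, and was at 0.24 ± 0.26 (adjusted p = 0.512) in shRFP, where its libraries overlapped. Sema3d fell in shSdc1, -0.92 ± 0.18 (adjusted p = 8.10e-04), and was at -0.48 ± 0.25 (adjusted p = 0.159) in shRFP. Sema3b, the most abundant ligand, rose in shSdc1 by 0.19 ± 0.053 (adjusted p = 0.0106) but not without shSdc1 replicate 3 (0.0703), and was at 0.00038 ± 0.053 (adjusted p = 0.997) in shRFP. Sema3c did not pass in either line, at -0.019 ± 0.16 (adjusted p = 0.942) and 0.15 ± 0.12 (adjusted p = 0.368). In shSdc1 4 class 3 members thus rose and 1 fell, counting Sema3g.

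Sema6d fell in shRFP with IFNγ, -0.91 ± 0.14 (adjusted p = 7.45e-05), 1.88-fold, without overlap. In shSdc1, where it was already low, it was at -0.53 ± 0.24 (adjusted p = 0.109) and passed without shSdc1 with IFNγ replicate 2 (-0.78, adjusted p = 0.0393). Without shSdc1 with IFNγ replicate 1 it was at -0.28 (adjusted p = 0.44). Sema6a fell in shSdc1, -0.43 ± 0.063 (adjusted p = 3.32e-05), and was at -0.097 ± 0.063 (adjusted p = 0.262) in shRFP, with no overlap in either line. Sema4c fell in shSdc1 as well, -0.23 ± 0.054 (adjusted p = 0.00359), and was at -0.087 ± 0.053 (adjusted p = 0.228) in shRFP, with no overlap in either line. Sema4b rose in both lines without overlap, 0.23 ± 0.083 (adjusted p = 0.0424) and 0.33 ± 0.086 (adjusted p = 0.00679). The call in shRFP ended without shRFP replicate 1 or 3 or shRFP with IFNγ replicate 1 or 2 (0.203, 0.051, 0.136 and 0.0886), and that in shSdc1 without shSdc1 replicate 2 (0.0528). Sema4d and Sema6b rose in shSdc1, 0.21 ± 0.070 (adjusted p = 0.0288) and 0.25 ± 0.087 (adjusted p = 0.0391). In shRFP they were at 0.093 ± 0.071 (adjusted p = 0.346) and 0.11 ± 0.092 (adjusted p = 0.388). The Sema4d call held without shSdc1 with IFNγ replicate 3 but ended without any 1 of the other 5 libraries of its comparison (0.0543 to 0.14). The Sema6b call ended without shSdc1 replicate 1 or 2 or shSdc1 with IFNγ replicate 2 or 3 (0.0874, 0.182, 0.118 and 0.131).

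Receptors other than Plxnc1 changed less. Plxna3 rose in shSdc1, 0.58 ± 0.15 (adjusted p = 0.00614), but did not pass without shSdc1 with IFNγ replicate 1 (0.43, adjusted p = 0.0565), and in shRFP it was at -0.071 ± 0.17 (adjusted p = 0.788). Plxnb1 fell in both lines without overlap, -0.16 ± 0.048 (adjusted p = 0.0183) and -0.16 ± 0.049 (adjusted p = 0.0152). Its call in shRFP ended without shRFP replicate 2 or 3 or shRFP with IFNγ replicate 2 (0.104, 0.0518 and 0.0886), and in shSdc1 without shSdc1 replicate 2 or shSdc1 with IFNγ replicate 2 or 3 (0.07, 0.0644 and 0.0634). Nrp2 rose in shSdc1, 0.10 ± 0.031 (adjusted p = 0.017), and Plxna1 fell there, -0.15 ± 0.056 (adjusted p = 0.0468). In shRFP these genes moved the same way without passing, Nrp2 at 0.067 ± 0.031 (adjusted p = 0.109) and Plxna1 at -0.092 ± 0.056 (adjusted p = 0.225). The Nrp2 call ended without shSdc1 replicate 2 or 3 or shSdc1 with IFNγ replicate 1 or 3 (0.0839, 0.123, 0.0727 and 0.0589). The Plxna1 call ended without any 1 of the shSdc1 replicates (0.0935, 0.137 and 0.0621) or shSdc1 with IFNγ replicate 1 or 2 (0.0781 and 0.25). Nrp1, Plxnb2, Plxnd1, Plxna4 and Plxnb3 did not pass in either line, nor did the ligands Sema4f and Sema4g. Sema4a was at -0.19 ± 0.32 (adjusted p = 0.688) in shRFP and 0.72 ± 0.29 (adjusted p = 0.0737) in shSdc1, where its libraries overlapped. In shSdc1 it passed with limma-voom (0.80, adjusted p = 0.0427), with no filter (0.71, adjusted p = 0.0309) and without shSdc1 replicate 1 (1.19, adjusted p = 0.0077), and was at 0.49 without shSdc1 replicate 3 (adjusted p = 0.27).

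Among the other receptors 2 of 6 were higher and 1 lower in each line, 50% in each, against 31.6% and 30.5% of all genes. In shRFP these were Nrcam at 0.41 ± 0.038 (adjusted p = 7.02e-08), Itga1 at -0.26 ± 0.085 (adjusted p = 0.0248) and Met at 0.21 ± 0.044 (adjusted p = 0.00118). In shSdc1 they were Met at 0.54 ± 0.044 (adjusted p = 1.46e-08), Nrcam at 0.46 ± 0.038 (adjusted p = 1.48e-08) and Erbb2 at -0.21 ± 0.066 (adjusted p = 0.0194). Nrcam is a neuropilin-2 partner. Of the 30 cytoplasmic partners 6 were higher and 4 lower in shRFP and 5 and 3 in shSdc1, 33.3% and 26.7%, near the 31.6% and 30.5% of all genes. Their median log2 fold changes were -0.045 and 0.0019, against -0.0058 and 0.0042 for all genes. The largest in shRFP were Mras at 1.501 ± 0.063 (adjusted p = 4.71e-13), Rras at 0.44 ± 0.12 (adjusted p = 0.00981) and Fyn at -0.40 ± 0.072 (adjusted p = 3.03e-04), and in shSdc1 Mras at 1.61 ± 0.064 (adjusted p = 1.59e-13), Rnd1 at 0.74 ± 0.24 (adjusted p = 0.0246) and Rras at 0.63 ± 0.11 (adjusted p = 2.81e-04). Mras and Rras are Ras-like GTPases, and Fyn is a kinase downstream of plexins.

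Of the 5 VEGF family genes 2 were higher and 1 lower in shRFP, Pgf at 1.89 ± 0.59 (adjusted p = 0.0203), Flt4 at 1.82 ± 0.16 (adjusted p = 2.90e-08) and Vegfa at -0.89 ± 0.084 (adjusted p = 1.17e-07), with Pgf at a mean of 0.294 ± 0.0774 and 1.13 ± 0.249 CPM (SD, n = 3). In shSdc1 1 was higher and 2 lower, Flt4 at 2.68 ± 0.15 (adjusted p = 2.66e-11), Vegfa at -0.36 ± 0.085 (adjusted p = 0.00318) and Vegfb at -0.25 ± 0.054 (adjusted p = 0.00161). Flt4 was at 2.36 ± 0.534 and 8.32 ± 0.907 CPM in shRFP and 2.48 ± 0.153 and 15.9 ± 0.712 in shSdc1, untreated and treated. Of the 5 VEGF family genes 60% passed in each line, against 31.6% and 30.5% of all genes. Of the 5 proteases 20% passed in shRFP and 80% in shSdc1, beside the same shares of all genes. In shRFP 1 protease was higher, Furin at 0.56 ± 0.045 (adjusted p = 1.01e-08). In shSdc1 3 were higher and 1 lower, with Furin at 0.41 ± 0.044 (adjusted p = 7.37e-07), Mmp14 at -0.34 ± 0.044 (adjusted p = 5.98e-06) and Adam17 at 0.26 ± 0.048 (adjusted p = 3.48e-04) the largest.

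The third comparison asked whether the shSdc1 effect differed with IFNγ, as the difference of the 2 log2 fold changes. It passed for 2 of the 26 members, 7.69%, against 9.73% of all genes: 1 upward, against 4.58%, and 1 downward, against 5.15%. No member's difference was 2-fold in either direction, against 0.596% and 0.170% of all genes. Plxnc1 passed at 0.35 ± 0.061 (adjusted p = 0.00164): shSdc1 was 1.39-fold lower than shRFP without IFNγ and 1.09-fold lower with it. Sema6a passed at -0.33 ± 0.089 (adjusted p = 0.0257), being higher in shSdc1 without IFNγ and overlapping with it. The Sema6a call was lost on leaving out shRFP replicate 1 or 2, shSdc1 replicate 2, or shSdc1 with IFNγ replicate 1 or 2 (adjusted p = 0.0687, 0.0557, 0.0609, 0.0625 and 0.0557). For Sema3f, Sema6d and Sema3d the differences were 0.56 ± 0.29 (adjusted p = 0.244), 0.38 ± 0.28 (adjusted p = 0.418) and -0.44 ± 0.32 (adjusted p = 0.411), none past the threshold. Nor did the difference pass for Nrp2, Plxna1, Sema4c, Sema4d or Sema6b, called for IFNγ in shSdc1 but not in shRFP (adjusted p = 0.664, 0.683, 0.261, 0.499 and 0.543). Sema4a was at 0.91 ± 0.43 (adjusted p = 0.192) and did not pass. Plxna3 was at 0.66 ± 0.23 (adjusted p = 0.0727) and passed without shSdc1 with IFNγ replicate 3 (0.0477), and Sema3b was at 0.19 ± 0.075 (adjusted p = 0.12) and passed without shRFP with IFNγ replicate 3 (0.0252). Of the pathway genes the difference passed for 33.3% of 6 receptors and 6.67% of 30 cytoplasmic partners, against 9.73% of all genes. It passed for 40% of 5 VEGF family genes and 40% of 5 proteases. The receptors were Met at 0.33 ± 0.063 (adjusted p = 0.00314) and L1cam at 0.23 ± 0.070 (adjusted p = 0.0415). The cytoplasmic partners were Cfl1 at -0.30 ± 0.068 (adjusted p = 0.0106) and Mical1 at 0.29 ± 0.088 (adjusted p = 0.0465). In the VEGF family they were Flt4 at 0.86 ± 0.22 (adjusted p = 0.0211) and Vegfa at 0.53 ± 0.12 (adjusted p = 0.00961). The proteases were Adam17 at 0.25 ± 0.068 (adjusted p = 0.0277) and Mmp14 at -0.24 ± 0.062 (adjusted p = 0.0211).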

How the data were processed

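Per the labels' protocols, total RNA was extracted with TRIzol and sequenced paired-end on an Illumina instrument. The deposited values are raw counts per gene in 12 libraries; per the submitters' processing notes, Trimmomatic, HISAT2 2.0.5, HTSeq and GRCm39 were used, with annotation and strand handling not given in the sources used here. Of 56093 rows, 52083 were given a symbol, and exon lengths, from GENCODE M21, a GRCm38 annotation used for names, lengths and gene order only; 677 rows are assembled loci. Genes were kept with edgeR 4.0.16 filterByExpr (minimum count 10, minimum total 15), scaled by TMM and fitted with the quasi-likelihood F test in R 4.3.3, 1 coefficient per group over all 12 libraries (8 residual degrees of freedom), two-sided, with Benjamini-Hochberg adjustment over 14089 genes and a threshold of 0.05. Replicate libraries differed by more than sampling noise in every pair. Chi-square per gene was 60.8 and 59.8 for shSdc1 replicate 3 against replicates 1 and 2, and 2.33 to 7.55 in the other pairs. In shSdc1 replicate 3 a single row without a symbol took 4.79% of counts, and it was not left out of this check. Of 4 promoter motifs searched, 1 is not reported here. Alternatives were other scalings and filters, DESeq2 1.42.0, limma-voom 3.58.1, a replicate block, the compared groups alone, a 2-fold minimum, leaving out each library, and, chosen after seeing the data, leaving out the assembled loci and the dominant row. Values are printed per library for members that passed in at least 1 comparison with a group mean of at least 1 CPM, and from each pathway list for up to 3 genes that passed with the largest change. The members and lists were chosen with earlier results of these data known.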

Additional observations from a re-analysis of the deposited data

Results flagged for a closer look

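The difference between the shSdc1 effect with and without IFNγ passed edgeR's quasi-likelihood test for 2 members. For Plxnc1 the difference in log2 fold change was 0.35 ± 0.061 (adjusted p = 0.00164), with all 6 shSdc1 libraries below the shRFP libraries of their condition. For Sema6a it was -0.33 ± 0.089 (adjusted p = 0.0257), with all 3 shSdc1 libraries above shRFP without IFNγ and overlapping libraries with it. The Sema6a call was lost in 5 of 20 alternatives, each leaving out 1 library (edgeR adjusted p = 0.0557 to 0.0687), and the Plxnc1 call in 0 of 20.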

How the results depend on the processing

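Each alternative was run on all tested members. Of 130 member and comparison pairs, the 92 that passed or lay beyond 1 SE were followed, of which 56 had passed. Pairs within 1 SE of 0, the most able to change direction, were not followed, so the counts of changed direction do not cover them. With all libraries kept, 785 of 816 values stayed on their side of the threshold, 26 lost a call, 5 gained one and 0 changed direction; leaving out 1 library, 554 of 624 stayed, 64 lost a call, 6 gained one and 0 changed direction. Calls that held in every one of these alternatives numbered 12 of 15 for shSdc1 without IFNγ, 13 of 18 with it, 3 of 6 for IFNγ in shRFP (Plxnc1, Sema3g and Sema6d), 7 of 15 in shSdc1 and 1 of 2 for the interaction (Plxnc1). A minimum of 2-fold left 3 members higher and 2 lower for shSdc1 without IFNγ, 4 and 2 with it, 1 and 0 for IFNγ in shRFP, 2 and 0 in shSdc1, and 0 and 0 for the interaction. Fitting the compared groups alone left 1 member lower for IFNγ in shRFP, Plxnb1 no longer passing (adjusted p = 0.0515), and ended Plxnb1 and Sema4f for shSdc1 with IFNγ (0.0554 and 0.0813). Calls gained with all libraries kept were Plxnb1 for shSdc1 without IFNγ in the fit of the compared groups (0.0349) and with limma-voom (0.0494), Sema4f there with the replicate block (0.0467), and Sema4a for IFNγ in shSdc1 with limma-voom and with no filter (0.0427 and 0.0309). Leaving out 1 library gave 2 to 4 members higher and 1 to 2 lower for IFNγ in shRFP, 6 to 9 and 3 to 4 in shSdc1, 1 to 2 and 0 to 1 for the interaction, 8 to 9 and 5 to 7 for shSdc1 with IFNγ, and 6 to 8 and 6 to 8 without it. Calls over all genes moved too, for IFNγ in shRFP from 4446 to between 3445 and 4507, and in shSdc1 from 4295 to between 3356 and 3911. For the interaction 1371 became 789 to 1999, for shSdc1 with IFNγ 5121 became 4146 to 5166, and without it 4024 became 3215 to 3494. A count over all genes of calls that held in every alternative is not given here. The labels state no pairing of samples by replicate number. After centring on group means, same-numbered libraries correlated by -0.117 to 0.069, and 1 of 12 correlated best with its own number. With 3 libraries per group this check showed no pairing but cannot exclude it. With the replicate block, 5 members were lower for shSdc1 with IFNγ instead of 8, Plxnb1, Plxnc1 and Sema4b no longer passing (adjusted p = 0.0587, 0.0502 and 0.0643). Over all genes 2319 were lower there instead of 2453. The block also ended the calls of Sema4a there (0.0534), Sema4b for IFNγ in shRFP (0.0622) and Plxna1 for IFNγ in shSdc1 (0.0728). Testing with no filter ended Sema6a for shSdc1 without IFNγ (0.0544), Plxnc1 and Sema4f with it (0.0577 and 0.0917) and Nrp2, Sema4d and Sema6b for IFNγ in shSdc1 (0.0991, 0.0979 and 0.0891). The DESeq2 Wald test ended Sema4b and Sema4f for shSdc1 with IFNγ (0.0623 and 0.0787), Sema4b for IFNγ in shRFP (0.0609) and Sema4d and Sema6b for IFNγ in shSdc1 (0.0896 and 0.0913). Upper-quartile scaling ended Plxnb1 and Sema4b for shSdc1 with IFNγ (0.0662 and 0.061). Upper-quartile scaling lowered the median of all genes for IFNγ in shRFP to -0.059. The depth limits the 5 members left out and those near 1 CPM, such as Sema4g, Plxna4 and Plxnb3. Members with large changes also had low counts on 1 side. Sema7a, Sema3d and Sema3g had 53, 56 and 61 counts in their lowest group of 3 libraries, and Sema3f had 70 in shRFP. The causes of lost calls were not tested.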
